A study of Mus musculus with 20 samples.

Results

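The stress keratins are Krt6a, Krt6b, Krt16 and Krt17, taken here as the 4 rows with these gene symbols in a raw count table of 25719 genes. RNA came from flow-sorted keratinocytes of 20 mice, in 4 groups of 5, with ear and back skin combined for each mouse. Conditional knockout (cKO) mice were Cyp11b1 L2/L2, that is, homozygous for a floxed allele, and carried K14-CreERTam, a Cre recombinase that tamoxifen activates and that the promoter of the basal keratin Krt14 drives. Controls were littermates with the same floxed alleles and no Cre, and they received tamoxifen as well. The product of Cyp11b1 catalyses the last step to corticosterone, so the design asked how keratinocytes respond when the skin's own glucocorticoid synthesis is lost. Tamoxifen was given on 5 days and cells were taken on day 6. In the topical groups it was applied in ethanol to the ear (20 µl) and to the dry-shaved back (100 µl). In the systemic groups it was injected into the peritoneum (100 µl of 10 mg/ml in oil and ethanol), with no shaving described. Route, vehicle and shaving therefore differ together between topical and systemic mice and cannot be told apart. The ages and sexes of the mice and the markers used for sorting are not given in the sources used here.

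Keratins are the intermediate filament proteins of epithelial cells, and each filament pairs a type II keratin with a type I keratin. Krt6a and Krt6b encode type II proteins, and Krt16 and Krt17 encode type I proteins that pair with them. In healthy skin these keratins are found mainly in hair follicles, nail and other appendages, while basal keratinocytes between the follicles make Krt5 and Krt14 and the layers above make Krt1 and Krt10. Wounding, barrier damage and inflammation induce the stress keratins in the epidermis between the follicles, and for that reason they serve as markers of an activated keratinocyte. In a bulk sample, fewer cells of a type and less RNA per cell cannot be told apart.

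In the GENCODE M21 annotation of GRCm38, the build named in the submitters' processing notes, the 4 genes lie in the 2 keratin clusters of the mouse genome, all on the minus strand. Krt6a (ENSMUSG00000058354, chr15:101689910-101694307) and Krt6b (ENSMUSG00000023041, chr15:101676023-101680287) are neighbours with 9 exons each. Krt16 (ENSMUSG00000053797, chr11:100246091-100248902) and Krt17 (ENSMUSG00000035557, chr11:100256217-100261029) are neighbours with 8 exons each. The coding sequences of Krt6a and Krt6b are identical at 97.8% of 1659 aligned bases, and those of Krt16 and Krt17 at 77.5% of 1283. The 90-base stretch of exon 4 below, coding bases 787 to 876, is shown as an example of where a read can separate the Krt6 copies: the 12 positions of this stretch at which they differ are in capitals. It lies at chr15:101692484-101692573 in Krt6a and at chr15:101678303-101678392 in Krt6b, and both are written 5′ to 3′ along the transcript.
Krt6a: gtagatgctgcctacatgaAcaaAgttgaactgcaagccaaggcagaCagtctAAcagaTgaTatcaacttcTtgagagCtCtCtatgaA
Krt6b: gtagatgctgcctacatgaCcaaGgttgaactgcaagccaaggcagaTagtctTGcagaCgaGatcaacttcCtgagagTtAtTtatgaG

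Other stretches are shared between the copies. Of all 50-base runs in the Krt6a transcript, 49.5% also occur in a transcript of another gene, Krt6b foremost, and the share is 50.1% for Krt6b. At a run length of 100 bases the shares were 34.0% and 30.6%. Krt16 shares 37.6% of its 50-base runs, most with the predicted gene Gm11597, and Krt17 shares 3.99%. How the authors' counting treated reads that fit several genes is not given in the sources used here, so the division of reads between Krt6a and Krt6b, and part of the Krt16 count, is uncertain.

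Library totals ran from 11.6 to 50.1 M counts. Cyp11b1 gave 9 reads in all topical control libraries together, 7 in topical cKO, 2 in systemic control and 4 in systemic cKO, too few to check the deletion. By Y-linked transcripts there were 3 male mice in topical control, 2 in topical cKO, 3 in systemic control and 2 in systemic cKO. Satellite-like transcripts exceeded 50 CPM (counts scaled to the library total) in all 5 systemic control libraries and in systemic cKO mouse 2, and in no topical library. Mitochondrial genes took 1.87% to 7.49% of counts. The summed level of 9 epidermal markers was 49290 to 133300 CPM, which fits the keratinocyte label, with Krt14 the highest of them at group means of 35440 to 54800 CPM. Summed markers of fibroblasts, immune cells, melanocytes and endothelium reached at most 24.8, 35.8, 23.2 and 7.23 CPM in any library.

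All 4 stress keratins were detected in every library, at levels that fell into 2 tiers. Per kilobase of transcript, Krt16 and Krt17 had median levels over the 20 libraries of 3540 and 4300 CPM per kb, Krt6a had 51.1 and Krt6b had 5.39. Krt16 was above Krt6a and Krt6a above Krt6b in 20 of 20 libraries. Krt17 was above Krt16 in 10 of 20 libraries, so this pair had no fixed order. The type I members were therefore far more abundant than the type II members that are known to pair with them. For scale, unadjusted for length, Krt17 had group means of 6386 to 11029 CPM and the suprabasal keratin Krt1 had 4404 to 8255.

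The members also differed in how widely they ranged between mice. Krt6b spanned 416-fold from the lowest to the highest library, Krt6a 95.7-fold, Krt16 26.2-fold and Krt17 11.7-fold. Within every group the spread was large, and the highest and lowest mice of a group often differed more than the group means did.

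**Figure D1:**
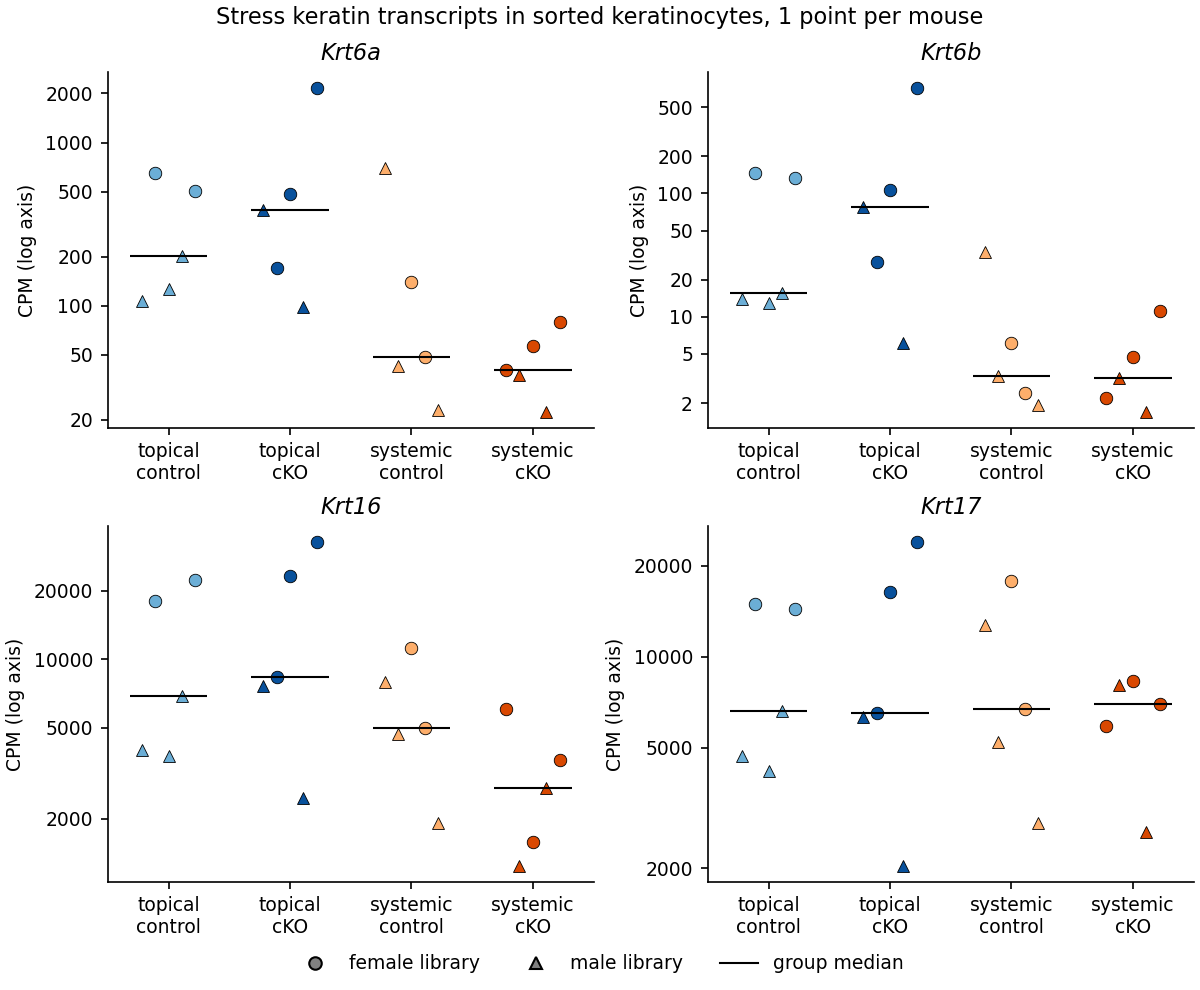
Levels of the 4 stress keratins in CPM (log axis) by group, 1 point per mouse, with circles for female and triangles for male libraries and a line at the group median. Krt6a in systemic cKO mice sits between 22.4 and 79.0 CPM, below every topical cKO mouse, while the Krt17 medians of all groups lie between 6511 and 6977 CPM.

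Krt6a, the more abundant type II stress keratin, had its highest group mean in topical cKO mice. Its level in topical controls was 107, 126, 202, 504 and 647 CPM, and in topical cKO mice 98.8, 169, 386, 483 and 2147 CPM. The ranges overlap, and the highest topical cKO value is mouse 7. In systemic controls Krt6a was at 23.0, 42.5, 48.3, 140 and 693.5 CPM, the last being mouse 1, which alone of the systemic mice reached the range of the higher topical mice. In systemic cKO mice it was at 22.4, 37.5, 40.5, 56.3 and 79.0 CPM, the narrowest group. The group means were 317 ± 244 CPM in topical control, 657 ± 848 in topical cKO, 189 ± 285 in systemic control and 47.2 ± 21.5 in systemic cKO (SD, n = 5 each).

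Krt6b, its near copy, had the same order of groups by mean at much lower levels. Topical controls had 13.0, 14.02, 15.6, 134 and 147 CPM, which leaves 3 low mice and 2 high ones. Topical cKO mice had 6.10, 28.1, 77.7, 106 and 711 CPM. Systemic controls had 1.94, 2.43, 3.34, 6.19 and 33.4 CPM, and systemic cKO mice had 1.71, 2.20, 3.18, 4.74 and 11.1 CPM. The highest topical cKO and systemic control values belong to the same mice as for Krt6a. Group means were 64.8 ± 69.4, 186 ± 296, 9.46 ± 13.5 and 4.58 ± 3.81 CPM in the order topical control, topical cKO, systemic control and systemic cKO (SD, n = 5 each).

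Krt16, a type I partner that is low in resting interfollicular epidermis, was among the abundant keratins here. It was at 3785, 4000, 6905, 17973 and 22313 CPM in topical controls and at 2473, 7632, 8351, 23149 and 32619 CPM in topical cKO mice. In systemic controls it was at 1921, 4714, 5009, 7958 and 11169 CPM. In systemic cKO mice it was at 1245, 1578, 2739, 3612 and 6072 CPM, all but the highest of them below every topical control. From the highest to the lowest group mean, the order was topical cKO (14845 ± 12571), topical control (10995 ± 8580), systemic control (6154 ± 3525) and systemic cKO (3049 ± 1934 CPM, SD, n = 5 each).

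Krt17, a type I keratin of hair follicles and of activated epidermis, had nearly the same median in every group. Topical controls had 4189, 4713, 6596, 14338 and 14960 CPM, and topical cKO mice 2041, 6298, 6511, 16415 and 23882 CPM. Systemic controls had 2826, 5227, 6741, 12747 and 17787 CPM, and systemic cKO mice 2626, 5898, 6977, 8093 and 8335 CPM. All groups overlap. The means were 8959 ± 5275, 11029 ± 8913, 9066 ± 6097 and 6386 ± 2315 CPM in the same order (SD, n = 5 each).

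The first question was whether loss of Cyp11b1 changed the stress keratins within a route. Levels were compared with edgeR's quasi-likelihood test over all 12424 genes that passed a filter on low counts, all 4 members among them, and a gene was called at a Benjamini-Hochberg adjusted p under 0.05. After topical tamoxifen no member was called, against 0.129% of all genes tested. The log2 fold changes of cKO against control were 1.05 for Krt6a (95% interval -0.81 to 2.91), 1.51 for Krt6b (-0.87 to 3.90), 0.43 for Krt16 (-0.87 to 1.74) and 0.30 for Krt17 (-0.86 to 1.46), each with an edgeR adjusted p of 0.997. The intervals leave room for rises of several fold in Krt6a and Krt6b, while the lower limits of all 4 were only -0.87 to -0.81. The direction rested on topical cKO mouse 7: without it the same log2 fold changes were -0.16, -0.26, -0.08 and -0.20.

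After systemic tamoxifen no member was called either, against 1.89% of all genes. Krt6a had the largest difference of the 4, a log2 fold change of -2.01 ± 0.91 (SE; 95% interval -3.92 to -0.09), with an unadjusted p of 0.0412 and an edgeR adjusted p of 0.298. Krt6b was at -1.03 ± 1.18, Krt16 at -1.01 ± 0.63 and Krt17 at -0.51 ± 0.56, with edgeR adjusted p-values of 0.748, 0.483 and 0.736. Without systemic control mouse 1, which was high for both Krt6 genes, the Krt6a value was -0.42 and that of Krt6b was 0.42.

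The genotype effects of the routes were then compared with each other. No member was called, against 0.25% of all genes. The systemic effect minus the topical effect was -3.06 ± 1.27 for Krt6a on the log2 scale (SE; unadjusted p 0.0270, edgeR adjusted p 0.284), -2.54 ± 1.63 for Krt6b (adjusted p 0.512), -1.45 ± 0.89 for Krt16 (0.485) and -0.81 ± 0.79 for Krt17 (0.686). With both mice that stood apart left out, topical cKO mouse 7 and systemic control mouse 1, the Krt6a value was -0.28 and the Krt6b value 0.68. Averaged over the routes, the genotype effects lay between -0.48 and 0.24, and again no member was called, against 0.314% of all genes.

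The route comparisons gave the clearest differences. In cKO mice, 3 of the 4 members were lower after systemic than after topical tamoxifen, against 9.22% of all genes called and 4.02% called lower. Krt6a was 13.9-fold lower (log2 fold change -3.80 ± 0.98, SE, edgeR adjusted p 0.0195), and its 5 systemic cKO mice all lay below its 5 topical cKO mice, as for 3.32% of all genes. Krt6b was 40.4-fold lower (-5.34 ± 1.35, adjusted p 0.0192), with the highest systemic cKO mouse above the lowest topical one. Krt16 was 4.87-fold lower (-2.28 ± 0.66, adjusted p 0.0311), also with overlapping mice. Krt17 differed by -0.79 ± 0.56 and was not called (95% interval -1.96 to 0.38, adjusted p 0.428). With the log2 level of satellite-like transcripts as a covariate the same 3 members were called. The covariate for a level over 50 CPM amounts here to leaving out systemic cKO mouse 2. Without that mouse the 3 were called as well, at -3.75, -5.18 and -2.69. None of the 4 was called without topical cKO mouse 7 (Krt6a -2.59, adjusted p 0.0732; Krt6b -3.57, adjusted p 0.0630; Krt16 -1.77, adjusted p 0.0992). With systemic control mouse 1 left out as well, Krt6a (-2.59, adjusted p 0.0102) and Krt6b (-3.56, adjusted p 0.0300) were called and Krt16 was not (-1.77, adjusted p 0.103). None was called without systemic cKO mouse 6 either, at -3.62, -5.13 and -2.25 (adjusted p 0.0525, 0.0502 and 0.0700). Krt16 was called in 4 of the 10 fits that left out 1 of the mice compared. It also lost its call without topical cKO mouse 4 (adjusted p 0.0689) and without systemic cKO mouse 4, 5 or 7 (0.0616, 0.0791 and 0.0546), with voom (0.0520), with a fit of the compared mice alone (0.0516), and, as did Krt6a, when all genes with a count were tested (0.0668 and 0.0523). In these fits the Krt16 log2 fold change was -2.35 to -1.90, against -2.28 in the fit of all 20 mice.

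In control mice no member was called between routes, although 18.3% of all genes were. Krt6b came closest, with a log2 fold change of -2.79 ± 1.20 for systemic against topical (95% interval -5.33 to -0.26, unadjusted p 0.0327, edgeR adjusted p 0.115). Krt6a was at -0.74 ± 0.88, Krt16 at -0.84 ± 0.63 and Krt17 at 0.02 ± 0.56 (adjusted p 0.593, 0.376 and 0.986). Systemic control mouse 1 weighed on the Krt6 genes: without it Krt6a was at -2.33 and Krt6b at -4.25, the latter called. Krt6b was called in 4 of 12 further fits with other settings. These were the DESeq2 Wald test (adjusted p 0.0366), voom (0.0392), the mitochondrial covariate (0.0305) and the fit without both mice that stood apart (0.0117). Krt6a was called in the last of these only (0.0147). Since the difference between the genotype effects was not called for any member, these data do not show that the route difference depended on genotype.

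**Figure D2:**
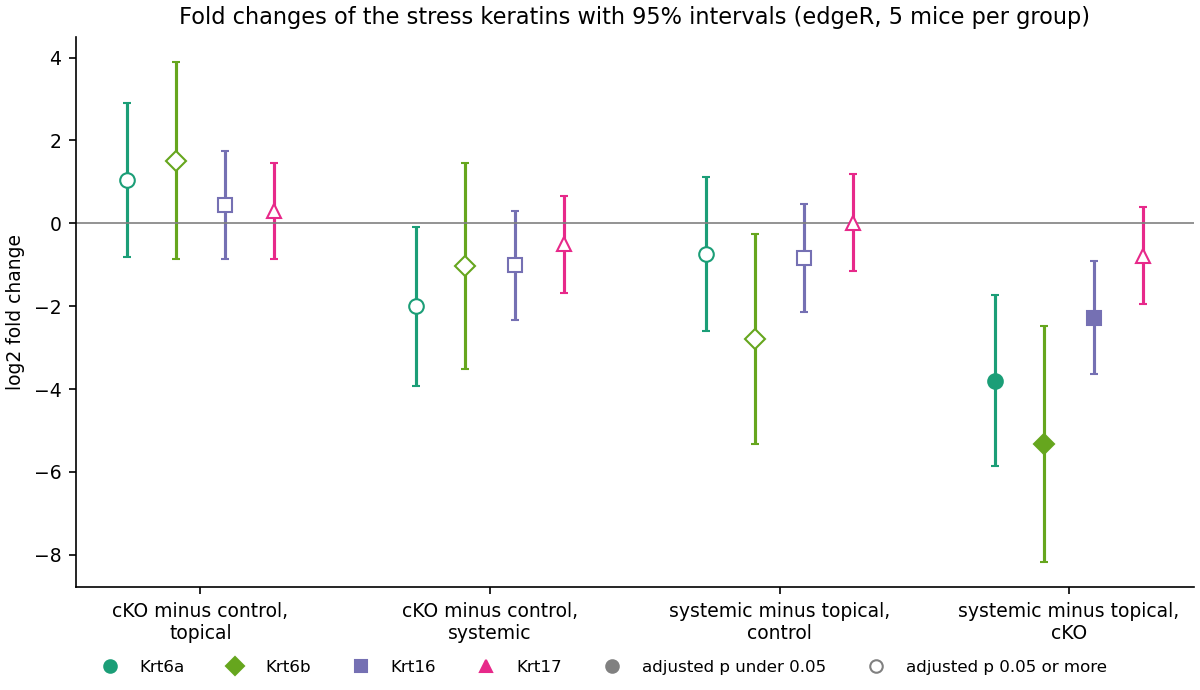
Log2 fold changes of the 4 stress keratins in 4 comparisons, with 95% intervals from the edgeR fit and filled points where the adjusted p was under 0.05. The filled points are Krt6a, Krt6b and Krt16 in systemic against topical cKO mice, at -3.80, -5.34 and -2.28.

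The members were also compared with the other keratins of the same library, which does not depend on scaling between libraries. The 4 stress keratins together made up 13.5 ± 6.03% of all keratin counts in topical control, 15.6 ± 8.53% in topical cKO, 10.9 ± 4.27% in systemic control and 7.65 ± 1.95% in systemic cKO (SD, n = 5 each). Nearly all of this was Krt16 and Krt17. Krt16 took 7.19%, 8.65%, 4.39% and 2.55% of keratin counts in these groups, while Krt17 took 6.10%, 6.52%, 6.34% and 5.06%. Krt6a and Krt6b stayed below 1% in every library. These shares were not tested.

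Krt16 counts exceeded Krt17 counts in 3 of 5 topical controls and 5 of 5 topical cKO mice, but in 0 of 5 systemic controls and 2 of 5 systemic cKO mice. The count ratio of Krt16 to Krt17 was 1.11 ± 0.28 in topical control and 1.30 ± 0.09 in topical cKO, where it ran only from 1.21 to 1.41 even though each gene varied more than 10-fold. It was 0.72 ± 0.11 in systemic control and 0.59 ± 0.43 in systemic cKO (SD, n = 5 each). Systemic cKO mice 4 and 5 had the lowest ratios, 0.154 and 0.189, with Krt17 at 8093 and 8335 CPM and Krt16 at 1245 and 1578. The ratio of Krt6a to Krt6b counts was 7.67 ± 3.79, 6.95 ± 5.28, 17.6 ± 4.93 and 12.5 ± 4.03 in topical control, topical cKO, systemic control and systemic cKO, and it rests on how reads were divided between near copies.

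**Figure D3:**
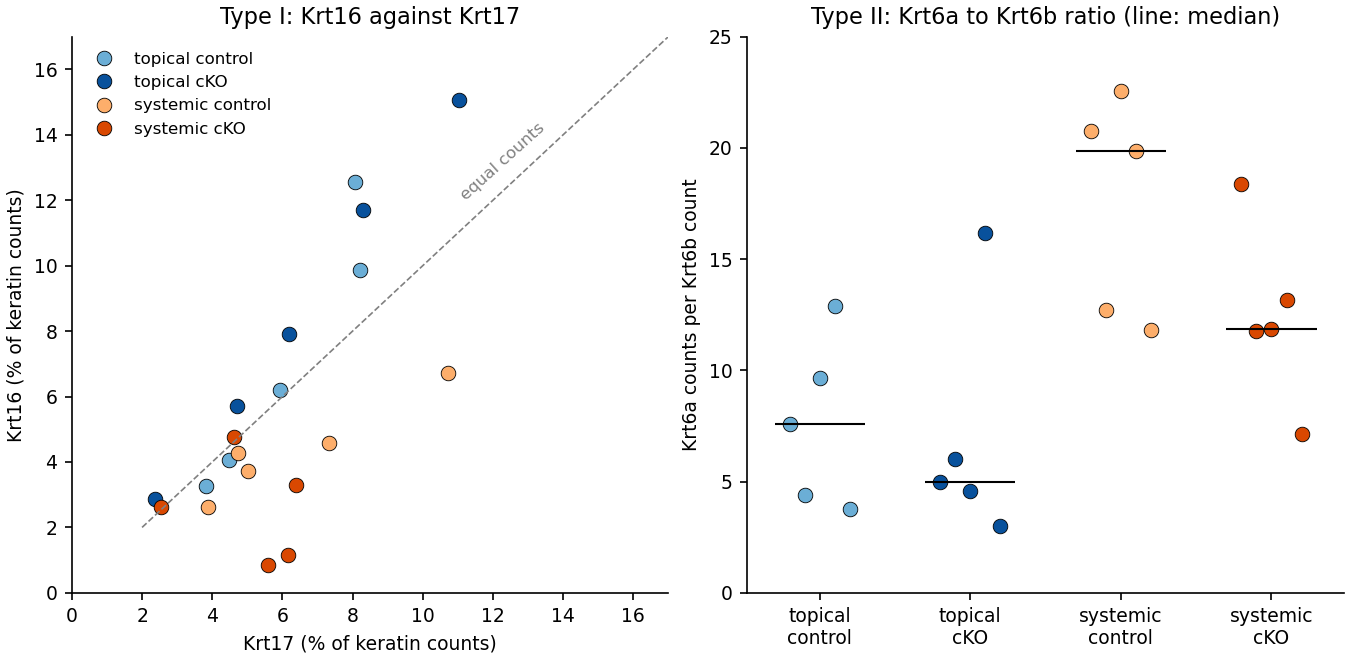
Left, Krt16 against Krt17 as percent of keratin counts, 1 point per mouse, with a line where the counts are equal; right, the count ratio of Krt6a to Krt6b by group. All 5 topical cKO mice lie on the Krt16 side of the line and all 5 systemic controls on the Krt17 side.

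The members varied together between mice of the same group. With group means removed, log2 CPM of Krt6a and Krt6b had a Pearson r of 0.94 over the 20 mice (Spearman rho 0.94). Its permutation p of 1e-05 is the smallest the 100000 permutations within groups can give, and the adjusted p over the 6 pairs is 6e-05. Shared reads between these near copies may enter this pair. The pairs of different type were Krt6a with Krt17 at r = 0.85 (rho 0.88, permutation p 9e-05), Krt6b with Krt17 at 0.86 (rho 0.85, p 1.7e-04), Krt6a with Krt16 at 0.75 (rho 0.78, p 8.1e-04) and Krt6b with Krt16 at 0.77 (rho 0.75, p 0.00155). Krt16 with Krt17 reached 0.81 (rho 0.77, p 3.1e-04). All 6 had adjusted p-values of at most 0.00155, and without the 2 mice farthest from the median r was 0.70 to 0.92. A mouse that was high for its group in a type II member was thus usually high in the type I members too. Some other genes followed a member as closely, such as H2-K1 with Krt17 at 0.97. How often other gene pairs reach such values was not tested, so the shared variation is not shown to be particular to the stress keratins.

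**Figure D4:**
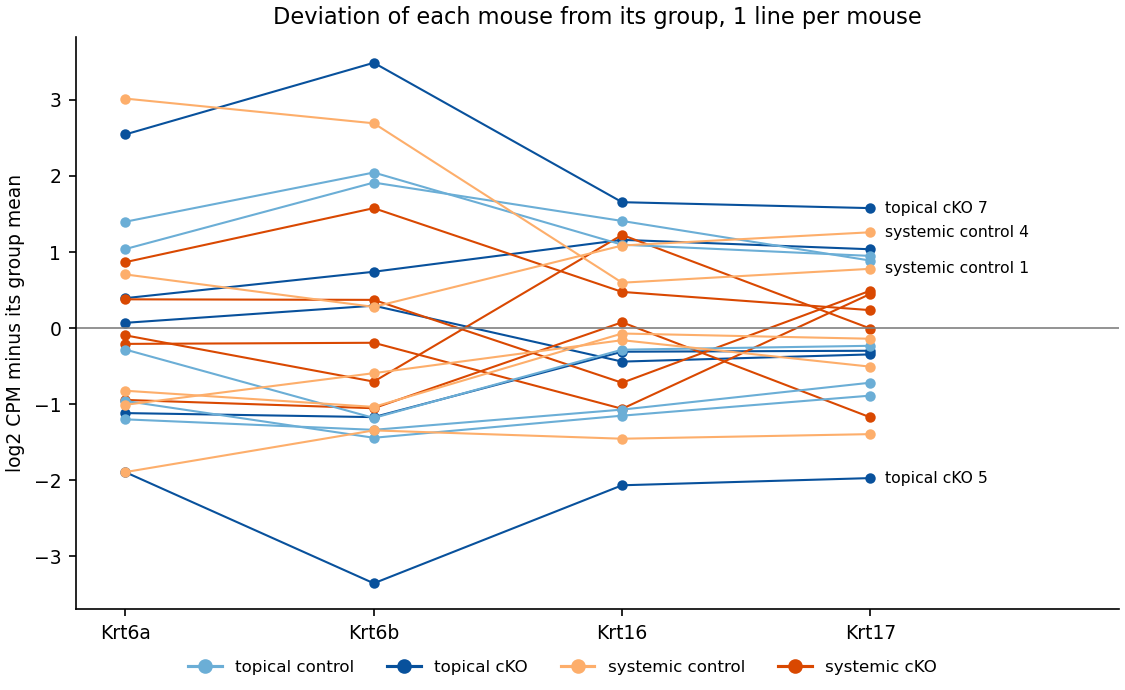
Deviation of each mouse from its group mean in log2 CPM, with 1 line per mouse across the 4 members. Lines that start high at Krt6a mostly stay high through Krt17, and the highest topical cKO line is mouse 7.

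Among 7819 genes whose mean level reached 5 CPM, those most like each member over the 20 mice, by r of group-centred log2 CPM and given as a description, differed between members. For Krt6a they were Pfkl, a glycolytic phosphofructokinase subunit (0.93), Stfa3, a stefin (0.91), and Ndufa4l2, a mitochondrial protein gene (0.90). For Krt6b they included Egln3, a prolyl hydroxylase that acts on hypoxia-inducible factor (0.88), and Pfkl (0.87). For Krt16 they were Smtn, which encodes smoothelin (0.91), Sprr1b, a cornified envelope precursor gene (0.90), and Smox, which encodes spermine oxidase (0.89). For Krt17 they were Krt42, a type I keratin gene that shares sequence runs with it (0.98), and the class I histocompatibility genes H2-K1 (0.97) and H2-D1 (0.97).

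The share of mitochondrial counts moved with the members. With group means removed, it had an r of -0.68 with Krt6a (rho -0.73, permutation p 0.00564), -0.68 with Krt6b (rho -0.71, p 0.00425), -0.54 with Krt16 (rho -0.53, p 0.0357) and -0.79 with Krt17 (rho -0.79, p 6e-04) over the 20 mice. Adjusted p-values over these 4 relations were 0.00752, 0.00752, 0.0357 and 0.0024, and without the 2 mice farthest from the median, topical cKO 3 and 5, r was -0.61, -0.59, -0.44 and -0.77. Such a relation was common: 33.8% of all genes were called for it in an edgeR fit, 16.3% in the lower direction. Each percentage point of mitochondrial counts went with a log2 difference of -0.66 in Krt6a, -0.84 in Krt6b, -0.37 in Krt16 and -0.43 in Krt17. With this share as a covariate, the route difference in cKO mice was -2.90 for Krt6a (adjusted p 0.0148), -3.98 for Krt6b (0.0126) and -1.68 for Krt16 (0.0685, no longer called).

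**Figure D5:**
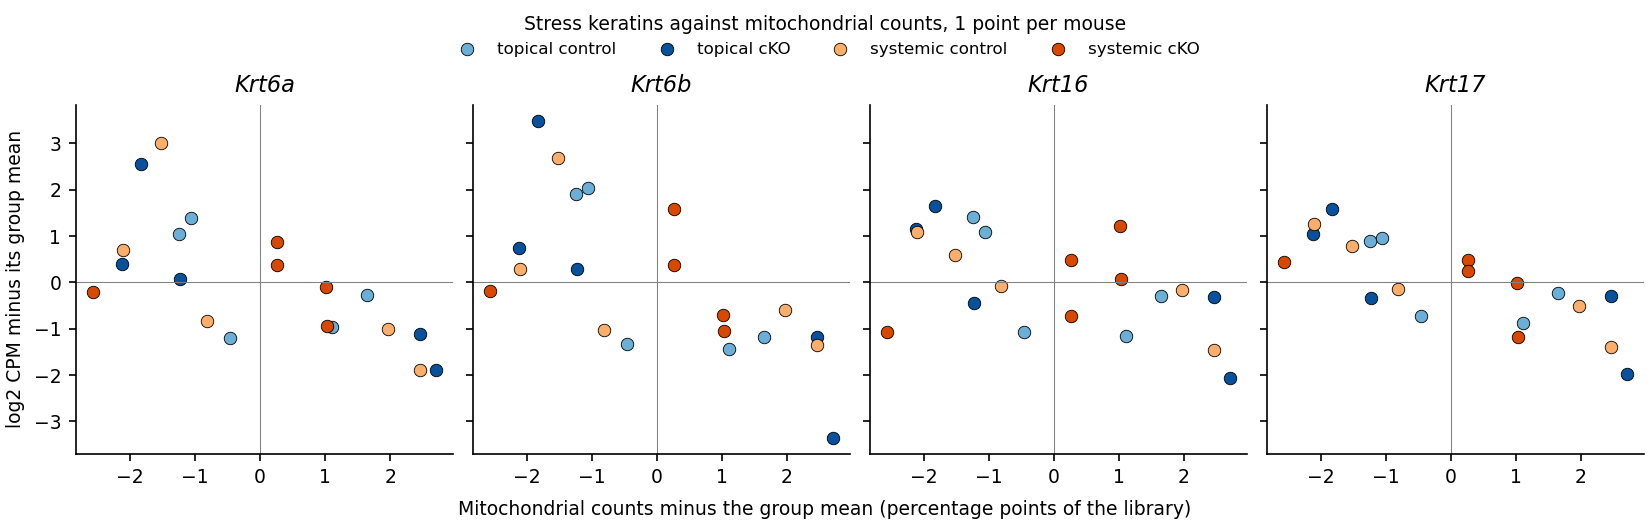
Deviation of each member from its group mean (log2 CPM) against the deviation of the mitochondrial share of counts (percentage points), 1 point per mouse, 1 panel per gene. Points run from upper left to lower right in all panels, with r from -0.54 for Krt16 to -0.79 for Krt17.

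Levels were also set out by sex, by a split looked at after seeing the data, in which mice with Y-linked transcripts over 5 CPM were taken as male. In the 10 topical mice Krt16 was at 8351 to 32619 CPM in the 5 females and at 2473 to 7632 CPM in the 5 males, with no overlap, as for 1.15% of all genes in this direction. Krt17, at 6511 to 23882 CPM in females and 2041 to 6596 in males, overlapped only where the highest male lay just above the lowest female. In the systemic mice the sexes overlapped widely, with Krt16 at 1578 to 11169 CPM in females and 1245 to 7958 in males. Over all 20 mice, with groups kept apart, the male minus female log2 difference was -1.45 ± 0.36 for Krt16 (SE, edgeR adjusted p 0.0564), -1.14 ± 0.34 for Krt17 (adjusted p 0.120), -1.78 for Krt6b (adjusted p 0.442) and -1.03 for Krt6a (adjusted p 0.584). None was called, against 0.853% of all genes. Whether the sex difference itself differed between routes was not tested. With sex as a covariate, 3 members were still called between routes in cKO mice.

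Genes that act with the stress keratins were taken from lists. None of the lists had a called gene in the topical comparison of genotypes, in the interaction or in the mean genotype effect. Between routes, 5.19% of all genes were called higher in systemic than in topical cKO mice, and in controls 10.2% were called higher and 8.16% lower. With satellite-like transcripts over 50 CPM as a covariate, 1 gene of the whole table was called between routes in controls and 0 between genotypes after systemic tamoxifen. Within groups this covariate varied only through systemic cKO mouse 2. Both fits therefore rest on that mouse, and the loss of calls does not measure an effect of the signal. All 5 systemic controls were over 50 CPM, so the differences named for these comparisons cannot be told apart from that signal. For the members, with this covariate, the genotype effect after systemic tamoxifen went from -1.01 to -0.02 for Krt16 and from -1.03 to -2.08 for Krt6b. Between routes in controls Krt16 went from -0.84 to -2.24 and Krt6b from -2.79 to -1.58. None of these values was called. The shifts reflect where systemic cKO mouse 2 lies and do not measure a response of the members to the signal. Of 15 tested neighbours and partners among the keratins, 2 rose and 1 fell in systemic against topical cKO mice. The log2 fold change was 2.60 ± 0.36 (SE) for Krt23, 1.60 ± 0.47 for Krt78 and -3.80 ± 0.68 for Krt7, a simple-epithelium keratin. In controls Krt23 (1.50 ± 0.35) and Krt15, a basal and follicle stem cell keratin (1.25 ± 0.32), rose and none fell. Of 15 genes for keratin linkers, which anchor filaments to junctions, periplakin (Ppl, 0.996 ± 0.16) and envoplakin (Evpl, 0.86 ± 0.21) rose in systemic against topical cKO mice and the desmosome gene Pkp2 changed by -2.06 ± 0.47. In controls Ppl (0.55 ± 0.16) and the plectin gene Plec (0.66 ± 0.20) rose. The median over each list was -0.003 and 0.26 in cKO mice, beside -0.01 over all genes.

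Regulators known to act on stress keratin genes include the AP-1 subunits. Of 26 tested, 3 rose and none fell in systemic against topical cKO mice, namely Fosb (1.14 ± 0.31), Fosl2 (0.62 ± 0.18) and Fos (0.92 ± 0.28). In controls 4 rose and none fell, among them Fosl2 (0.57 ± 0.18), Fos (0.83 ± 0.27) and Fosl1 (0.95 ± 0.32). The other AP-1 genes on the list, Fosl1, Jun, Junb and Jund, were not called between routes in cKO mice. Whether AP-1 acted on the stress keratins here was not tested. Fosb was also the only regulator called in systemic cKO against systemic control mice (1.71 ± 0.31, edgeR adjusted p 0.00521). Of 14 genes of the EGF receptor pathway, a known inducer of Krt6 and Krt16, 5 rose in systemic against topical cKO mice, including the ligands Ereg (2.88 ± 0.42), Btc (2.45 ± 0.54) and Areg (1.54 ± 0.37), and none fell. In systemic cKO against systemic control mice Ereg (1.81 ± 0.39) and Areg (1.66 ± 0.38) rose.

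Barrier alarm genes, which damaged epidermis induces beside the stress keratins, had 18 of 38 members past the filter. In systemic against topical cKO mice 3 of them fell, including the antimicrobial lipocalin gene Lcn2 (-2.12 ± 0.47) and Sprr1b (-3.08 ± 0.72), and the cross-linking enzyme gene Tgm1 rose (1.44 ± 0.26). The list's median was -1.18, beside -0.01 over all genes. In controls Il33 (0.85 ± 0.26) rose and none fell. Of 23 wound-edge genes tested of 28, 5 fell and 1 rose in cKO mice, with the matrix gene Tnc at -1.42 ± 0.26, the collagenase gene Mmp13 at -2.63 ± 0.50 and the gap junction gene Gjb2 at 1.77 ± 0.32. In controls 4 fell and 3 rose, with Plau at -1.41 ± 0.22, Mmp13 at -2.70 ± 0.54 and Tnc at -1.21 ± 0.25. Of 17 glucocorticoid-induced genes, none was called between genotypes by either route. Between routes none was called in cKO mice, and in controls Per1 rose (0.99 ± 0.29) while Fkbp5 (-1.39 ± 0.43) and Ddit4 (-1.20 ± 0.37) fell. With satellite-like transcripts over 50 CPM as a covariate, a fit that rests on systemic cKO mouse 2, Fkbp5 and Ddit4 were at 1.10 and 0.152 and were not called.

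Stress keratins are also made in hair follicles, so follicle markers were set beside them. The summed level of 24 follicle markers was 3228 to 4678 CPM in topical control, 1990 to 5363 in topical cKO, 2462 to 6387 in systemic control and 3372 to 5415 in systemic cKO, with none of the markers at 0 throughout a group. Of 20 tested, Lgr6 (0.58 ± 0.17) rose and Tbx1 (-1.05 ± 0.26) fell in systemic against topical cKO mice, and Lgr6 (0.53 ± 0.17) rose and Postn (-2.61 ± 0.72) fell in controls. Krt75, the follicle partner keratin of Krt17, was at most 5.66 CPM in any library. Sebaceous markers summed to 977 to 3191 CPM in topical cKO and 271 to 3829 in systemic cKO mice, with 1 of 11 tested, Plin2, lower in the latter (-1.65 ± 0.44). In systemic against topical cKO mice, 1 of 11 sebaceous markers had a positive log2 fold change (median -1.07), as did 5 of 20 follicle markers (-0.27). So did 0 of 5 endothelial (-1.23, with Tie1 called at -2.35), 0 of 4 fibroblast (-1.26) and 1 of 3 simple-epithelium markers (-0.68). The 1 muscle marker tested was at -1.09. These medians lay in the same direction as Krt6a, Krt6b and Krt16, beside -0.01 over all genes. Immune (3 of 4 positive, median 0.74), epidermal keratinocyte (7 of 9, 0.32) and melanocyte markers (2 of 3, 0.22) went the other way. The summed follicle level did too, with group medians of 3488 CPM in topical and 4705 in systemic cKO mice. Fibroblast and endothelial markers summed to at most 24.8 and 7.2 CPM in any library. The part of these cell types in the stress keratin levels was not tested.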

How the data were processed

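RNA was sequenced from 2000000 sorted keratinocytes per mouse as SmartSeq II libraries, per the labels' protocols. The authors deposited raw read counts per gene, with no normalization, for 20 mice. The submitters' processing notes name STAR, featureCounts, GRCm38 and mm10. Their settings for strand and for reads that fit several genes, and the gene annotation, are not given in the sources used here. Nothing states that the mice of a group came from separate litters, so p-values measure the spread between these samples. No pair of libraries within a group agreed within sampling noise (40 pairs, smallest chi-square per degree of freedom 27.1).

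Counts were analysed in R 4.3.3 with edgeR 4.0.16: TMM scaling, the default filterByExpr filter (count of at least 10, total of at least 15), robust quasi-likelihood F tests, two-sided, with 1 coefficient per group over all 20 libraries. P-values were adjusted over the 12424 genes kept. The standard error of a log2 fold change was taken as its size divided by the root of F, and its interval from the t quantile. Levels are TMM-scaled CPM, with a prior count of 2 for log2 values. Alternatives used DESeq2 1.42.0 and limma 3.58.1 (voom), other filters, covariates for sex, satellite-like transcripts and mitochondrial share, and each library left out. The fit was tested on simulated data. Lengths, loci and shared runs come from GENCODE M21.

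The 4 genes, the gene lists and the tests were chosen with earlier results of these data known. Genes other than the 4 were named by rule: up to 3 called genes per list and comparison with the smallest adjusted p, the 3 genes most like each member (1 of them is not reported here), and Krt5, Krt14, Krt1 and Krt10. Krt75 was singled out after its values were seen.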

Additional observations from a re-analysis of the deposited data

Results flagged for a closer look

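In 4 of the 16 sets of 5 values (4 genes in 4 groups), the highest mouse stood apart from the others by more than Dixon's 95% limit of 0.71 for the gap over the range. Chance alone flags about 1 set in 20 for normally distributed values, CPM values are skewed, and the 4 flags come from 2 mice. On log2 CPM, looked at after seeing the data, 0 of the 16 sets passed the limit, with ratios of 0.485 and 0.402 for topical cKO mouse 7 (Krt6a and Krt6b) and 0.471 and 0.598 for systemic control mouse 1. Topical cKO mouse 7 had Krt6a at 2147 CPM, with the next mouse at 483, and Krt6b at 711.1 CPM, with the next at 106. Systemic control mouse 1 had Krt6a at 693.5 CPM, with the next at 140, and Krt6b at 33.38 CPM, with the next at 6.19. For Krt16 and Krt17 neither mouse passed the limit. Topical cKO mouse 7 was a female library with 2.96% mitochondrial counts, and systemic control mouse 1 a male library with 2.44%. Their part in the results is given by the values without them.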

How the results depend on the processing

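The number of members called between routes in cKO mice, 3, became 0 with the replicate number as a block (Krt6a, Krt6b and Krt16 at -2.92, -3.99 and -1.76), 1 with all genes with a count and 0 to 3 with 1 library left out. Whether the numbers mark litters or batches is not stated. Same-numbered deviations correlated over 0.1 in 9 of 20 pairs, with a median r of 0.05 against -0.01 for other pairs. Only 3 of 20 libraries correlated best with their own number. This check shows no clear pairing and cannot exclude one. In controls the number, 0, became 1 with the DESeq2 Wald test, voom or the mitochondrial covariate, 2 without both mice that stood apart (an alternative chosen after seeing the data; Krt6a -2.32, adjusted p 0.0147, and Krt6b -4.24, adjusted p 0.0117) and 0 to 1 with 1 library left out. It stayed 0 in every genotype comparison and alternative run. Without Krt14 in the denominator the stress keratin share was 20.2%, 24.7%, 16.4% and 10.8%.

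Among the members, signs reversed for values that were not called. For Krt17 between routes in controls (0.02), voom gave -0.0876, all genes with a count -0.00297, the block -0.11, the mitochondrial covariate -0.19, leaving out both mice -0.13, and single libraries -0.38 to 0.28. For topical genotype effects the block gave -0.0629 for Krt16 and -0.30 for Krt17, leaving out both mice -0.15, -0.25, -0.0724 and -0.19 for Krt6a, Krt6b, Krt16 and Krt17, and single libraries -0.16 to 1.48, -0.26 to 2.06, -0.0807 to 0.86 and -0.20 to 0.57. For mean genotype effects, Krt6b was -0.28 with sex, -0.29 with satellite transcripts over 50 CPM and -0.20 with their log2 level as covariate; Krt16 was 0.21 with satellite transcripts over 50 CPM and 0.14 with the mitochondrial covariate, which gave 0.29 for Krt6a and 0.30 for Krt17. Single libraries gave -1.08 to 0.31 for Krt6a, -0.64 to 0.97 for Krt6b and -0.35 to 0.10 for Krt17. For systemic genotype effects, Krt6b was 0.44 and Krt17 0.19 with the mitochondrial covariate, and Krt6b was 0.43 without both mice and -1.62 to 0.42 with single libraries left out. The Krt6b interaction was 0.68 without both mice. Fkbp5 and Ddit4 in controls, both called, became 1.10 and 0.15 with satellite transcripts over 50 CPM as covariate, a fit that rests on systemic cKO mouse 2. The cause was not tested. All pairwise correlations kept their direction and threshold in every alternative run (r 0.65 to 0.95). Counts of called genes over the whole table moved by more than 1.5 times as follows. From 16 in the topical genotype comparison they became 42 (Wald) and 9 (block). From 235 in the systemic one they became 0 (either satellite covariate), 35 (only the libraries compared), 559 (Wald) and 1320 (mitochondrial). From 31 for the interaction they became 0 (satellite covariates or block), 49 (mean of 5 CPM, or sex), 218 (voom), 321 (Wald), 233 (both mice out) and 364 (mitochondrial). From 39 for the mean effect they became 1 and 14 (satellite), 105 (Wald) and 148 (mitochondrial). From 2277 between routes in controls they became 1 and 118 (satellite), 3475 (voom) and 3496 (mitochondrial). Single libraries left out gave 10 for the topical, 81 to 787 for the systemic, 16 to 470 for the interaction, 138 for the mean effect, and 1463 and 746 for the routes in controls and cKO, where they moved as far. The effect of depth on the members was not tested. Krt6b had as few as 25 counts in a library, and reads shared by near copies leave the division between Krt6a and Krt6b, and part of Krt16, uncertain.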
